A study of Homo sapiens with 35 samples.

Results

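The transcripts described here encode 10 regulators of the G1 to S step of the cell cycle: the CDK inhibitors CDKN1A (p21), CDKN1B (p27), CDKN1C (p57) and CDKN2C (p18), the kinase CDK6, the D-type cyclins CCND1, CCND2 and CCND3, and the E-type cyclins CCNE1 and CCNE2. They were taken by gene name from a table of read counts for 60665 genes in 35 libraries. The list was chosen with earlier results of these data known. All 10 were found, and all 10 were among the 19275 genes that passed the filter on low counts. D-type cyclins bind CDK4 and CDK6 and start the phosphorylation of the retinoblastoma protein RB1, which releases E2F transcription factors. E-type cyclins, themselves E2F targets, then activate CDK2 and drive entry into S phase. Inhibitors of the Cip/Kip family (CDKN1A, CDKN1B, CDKN1C) bind cyclin-CDK complexes, whereas those of the INK4 family, such as CDKN2C, bind CDK4 and CDK6 themselves. CDKN1A is a classical target of the p53 transcription factor.

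The cells were HEK293T, a single human embryonic kidney line that carries adenovirus E1A and E1B and the SV40 large T antigen, viral proteins that bind RB1 family proteins and p53, so it is a limited model of normal G1 control. The study depleted INTS13, a subunit of the Integrator complex that cleaves nascent transcripts, and 8 of its partner factors (HDGF, ZNF655, ZMYND8, TSPYL2, ZEB1, ZNF608, ZNF609 and ZNF687), to examine how Integrator and these factors relate functionally and in the response to glucose starvation. All libraries came from cells transfected with siPOOLs, which are complex pools of siRNAs, at 5 nM with RNAiMax, and each depletion lasted 72 h with a pair of transfections given 24 h apart. Starved cells spent their last 24 h in glucose-free medium.

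A first set of libraries, with replicate numbers 1 and 2, held 3 control-siPOOL libraries (1, 2a and 2b) and 2 libraries each after depletion of TSPYL2, ZEB1, ZNF608, ZNF609 and ZNF687. A second set, with replicate numbers 3 and 4, held 4 controls (3a, 3b, 4a and 4b) and 2 libraries each for INTS13, HDGF and ZNF655, all with glucose, together with 4 starved controls, 2 starved INTS13-depleted and 2 starved HDGF-depleted libraries. The labels name no control for ZNF655, so it was compared with the second-set controls that bear its numbers. ZMYND8 depletion had 2 libraries and 2 controls of its own. The comparisons with the second-set controls share those 4 libraries, and the 5 depletions of the first set share 3 controls. Starved ZMYND8-depleted cells are not analysed here. The labels leave it unsaid whether libraries of a group were separate cultures, and the p-values therefore cover only the variation among these libraries, part of which may be technical. In bulk RNA, fewer cells in a phase of the cycle and less transcript per cell cannot be told apart.

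Totals ranged from 16.8 M to 50.8 M counted reads per library, and the least abundant of the 10 genes, CDKN1C, had 38 to 154 reads. Each siPOOL target fell in its own depletion, to between 8.36% (HDGF) and 56.1% (ZNF608) of the control mean, and every depleted library lay below every control. Of markers of the HEK293 line, VIM, NEFL and KRT18 were expressed throughout, while PAX2 stayed at or below 1.86 CPM (read counts scaled to the library total). Of markers of mature kidney segments, UMOD was at 0 in all libraries, while LRP2 measured 47.4 to 109 CPM. First-set libraries with number 1 stood apart: 86 ribosomal protein genes took 10.5 to 16.8% of their reads, against 7.51 to 10.2% in number 2 and 5.57 to 8.51% in the other sets. In all 6 groups of the first set, CCND1, CCND2 and CDK6 were lower and CDKN1A, CDKN1B, CDKN2C and CCNE2 higher in number 1 than in every number 2 library of the same group. Controls of this set are 1, 2a and 2b, whereas each depletion holds 1 library of each number. Number 2 thus weighs more in the control means, and fold changes are given without a block unless stated. The part of the difference between numbers in the first-set results was not tested beyond the fits with replicate number as a block and without number 1.

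Levels are given as CPM after TMM scaling (a factor per library that evens out composition), and fold changes as log2 values ± standard error from edgeR's quasi-likelihood test over 1 fit of all 35 libraries. That fit estimates the spread of a gene over all sets together, without a block. Standard errors and intervals of second-set comparisons therefore also include the first-set difference between numbers. "Rose" and "fell" are used for a Benjamini-Hochberg adjusted p below 0.05 over 19275 genes. After INTS13 depletion 4 of the 10 genes passed (3 higher, 1 lower), where 12.8% of all genes tested did. After HDGF depletion 4 passed (2 higher, 2 lower) against 4.49% of all genes, and after ZNF655 depletion 4 (1 higher, 3 lower) against 11.5%. ZMYND8 depletion moved 1 of the 10 against 0.747% of all genes. In the first set the counts were 2 for TSPYL2 against 2.22%, 2 for ZEB1 against 3.77%, 2 for ZNF608 against 2.76%, 1 for ZNF609 against 0.571% and 0 for ZNF687 against 0.254%. For ZNF687, 1 of the 10 had an unadjusted p under 0.05 in edgeR and 0 were called by DESeq2. The median log2 fold change of the 10 genes lay between -0.27 (TSPYL2) and 0.15 (ZMYND8) over the 9 depletions, and that of all genes between -0.02 and 0.02.

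More of the 10 genes passed when the spread was estimated within the second set. In a fit of the second set alone, 9 of the 10 passed after INTS13 depletion where 30.1% of all genes did, 7 after HDGF depletion where 16.0% did, and 7 after ZNF655 depletion where 29.5% did. Replicate numbers paired the libraries of the first set (deviations from group means correlated above 0.1 in 15 of 15 pairs of groups). With replicate number as a block over all libraries, 7 of the 10 passed for TSPYL2 (all genes 19.2%), 3 for ZEB1 (all genes 14.4%), 4 for ZNF608 (all genes 9.16%), 3 for ZNF609 (all genes 2.40%) and 1 for ZNF687 (all genes 1.40%). With the same block in the first set alone, 0 passed for TSPYL2 (all genes 0.264%), 2 for ZEB1 (all genes 1.70%), 1 for ZNF608 (all genes 1.76%), 0 for ZNF609 (all genes 0.190%) and 0 for ZNF687 (all genes 0.0370%).

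**Figure D1:**
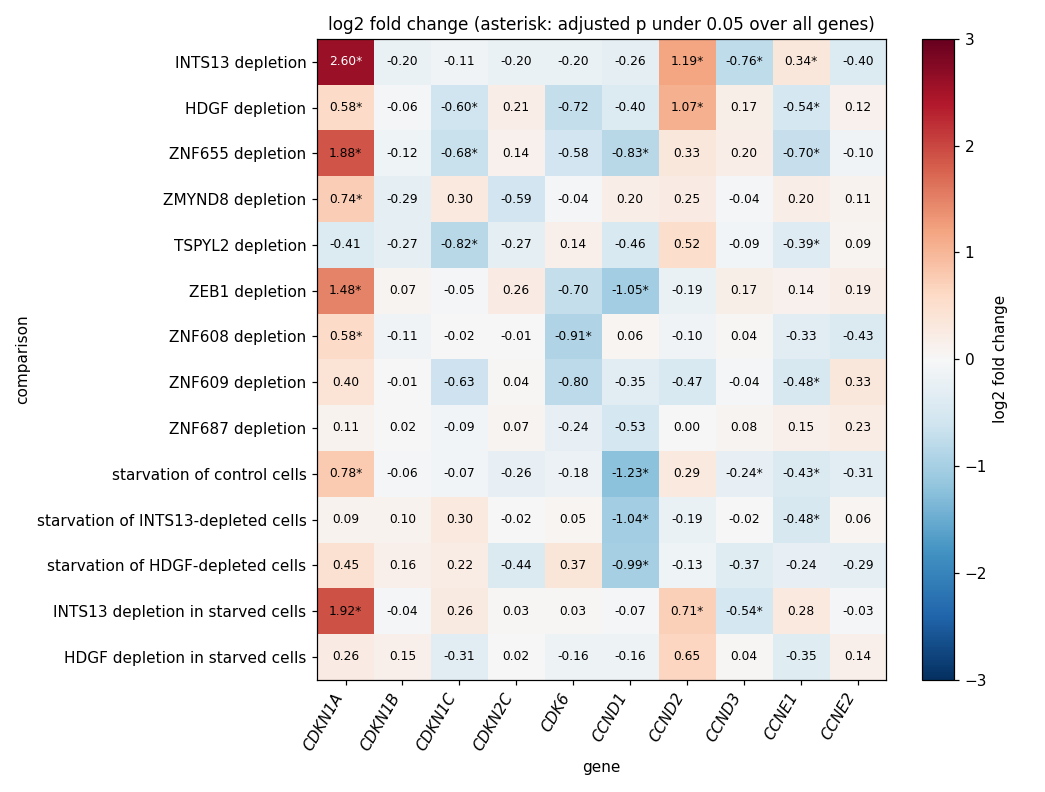
Log2 fold changes of the 10 genes (columns) in 14 comparisons (rows), coloured from blue (lower) to red (higher), with an asterisk where edgeR's adjusted p over all genes was below 0.05. Over the 9 depletions with glucose, CDKN1A carries asterisks in 6, all higher, while CCNE1 carries 1 for a higher and 4 for a lower level.

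Of the 10 genes, 6 were matched to promoter windows, from 250 bases before to 50 after a start site, in the RefSeq table used here (GRCh38.p14). The stretches shown belong to the inhibitor and the cyclin that were called most often across the depletions, CDKN1A and CCNE1, and to the kinase CDK6. Each is written 5′ to 3′ on the strand of the gene and stops short of the first exon annotated for the gene within the window (GENCODE), with GC boxes (GGGCGG on either strand, a sequence bound by SP1-family factors) in capitals.
CDKN1A, chr6:36678464-36678657, plus strand: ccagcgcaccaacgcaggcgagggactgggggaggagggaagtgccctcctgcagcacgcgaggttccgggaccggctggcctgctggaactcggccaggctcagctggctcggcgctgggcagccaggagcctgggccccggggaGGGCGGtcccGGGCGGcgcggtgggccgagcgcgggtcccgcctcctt
CCNE1, chr19:29811741-29811897, plus strand: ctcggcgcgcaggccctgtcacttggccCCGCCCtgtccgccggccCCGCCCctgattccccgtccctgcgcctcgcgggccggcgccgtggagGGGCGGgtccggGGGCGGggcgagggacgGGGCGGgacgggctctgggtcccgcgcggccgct
CDK6, chr7:92836595-92836823, minus strand: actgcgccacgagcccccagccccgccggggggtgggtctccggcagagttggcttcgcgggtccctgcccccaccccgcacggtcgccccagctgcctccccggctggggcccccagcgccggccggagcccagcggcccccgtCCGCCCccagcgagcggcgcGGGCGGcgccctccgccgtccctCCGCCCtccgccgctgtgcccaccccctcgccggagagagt
The whole windows hold 4 GC boxes for CDKN1A, of which 2 lie in the stretch shown and the other two overlap by 1 base, 7 for CCNE1, of which 5 are shown, and 3 for CDK6, all shown. A GC box was found in 45.0% of all 35116 windows of the same length. None of these 3 windows holds a TATA box (TATAAA, in 11.5% of all windows), an E2F site (TTTGGCGC, TTTCGCGC, TTTCCCGC or TTTGCCGC, in 3.32%) or a p53 site (in 0.0285%), and the CDK6 window holds 1 E-box (CACGTG, in 7.26%) outside the stretch shown. The absence of these letters says nothing of the factors' binding elsewhere.

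CDKN1A (ENSG00000124762.14, chr6:36676460-36687337, plus strand), the p21 inhibitor of cyclin-CDK complexes, was the most responsive of the 10 transcripts, with an 8.41-fold range over the 35 libraries. The second-set controls measured 17.7, 17.1, 20.6 and 15.9 CPM. After INTS13 depletion the libraries measured 109 and 107 CPM, 6.05-fold higher (log2 fold change 2.60 ± 0.13, adjusted p = 2.83e-13). ZNF655-depleted libraries were at 74.9 and 56.7 CPM (log2 fold change 1.88 ± 0.14, adjusted p = 7.97e-10). Both groups lay above every control. HDGF-depleted libraries reached 27.5 and 26.0 CPM, also above every control (log2 fold change 0.58 ± 0.14, adjusted p = 0.0135), but this call was lost without either HDGF library (adjusted p up to 0.216) and with the ZMYND8 controls in place of the second-set controls (adjusted p = 0.134).

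The sizes of these responses differed between the depletions. CDKN1A was higher after INTS13 than after HDGF depletion (log2 fold change 2.01 ± 0.17, adjusted p = 1.17e-08), a comparison in which 3 of the 10 genes and 8.23% of all genes passed. It was lower after HDGF than after ZNF655 depletion (log2 fold change -1.30 ± 0.16, adjusted p = 1.49e-05), where 2 of the 10 and 6.28% of all genes passed. Between INTS13 and ZNF655 depletion, where 4 of the 10 and 6.80% of all genes passed, the difference was 0.71 ± 0.16 (adjusted p = 0.00535), and it was lost without the ZNF655 library numbered 4 (adjusted p = 0.141).

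In the first set the CDKN1A controls measured 24.6, 21.5 and 20.0 CPM. ZEB1-depleted libraries measured 68.8 and 54.0 CPM, 2.79-fold higher (log2 fold change 1.48 ± 0.14, adjusted p = 7.00e-07), and this call was kept with each library left out in turn and in all other fits. ZNF608-depleted libraries were at 36.1 and 29.7 CPM, above all 3 controls (log2 fold change 0.58 ± 0.15, adjusted p = 0.0274). That call was lost in the fit of the first set alone (adjusted p = 0.450) and without either ZNF608 library or either of the controls 2a and 2b. ZNF609-depleted libraries were at 31.8 and 26.5 CPM, above the controls but without a call (log2 fold change 0.40 ± 0.15, adjusted p = 0.298), and ZNF687-depleted libraries, at 26.8 and 20.7 CPM, overlapped them. TSPYL2-depleted libraries had 18.7 and 14.4 CPM, below every control (log2 fold change -0.41 ± 0.15, adjusted p = 0.154), a difference that passed with the replicate block over all libraries (adjusted p = 0.00415) and not with it in the first set alone (adjusted p = 0.0536). After ZMYND8 depletion CDKN1A measured 33.3 and 35.1 CPM against 18.0 and 23.2 CPM in its controls (log2 fold change 0.74 ± 0.17, adjusted p = 0.0297), and this call was lost without any 1 of the 4 libraries. CDKN1A thus rose in 6 of the 9 depletions and fell in 0 of them in edgeR, with 6 calls by DESeq2. An unadjusted p under 0.05 was reached in 8, including the lower level after TSPYL2 depletion. Only the INTS13, ZNF655 and ZEB1 calls were kept with each library left out in turn. The HDGF, ZMYND8 and ZNF608 calls were also lost with controls a and b of 1 number summed.

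**Figure D2:**
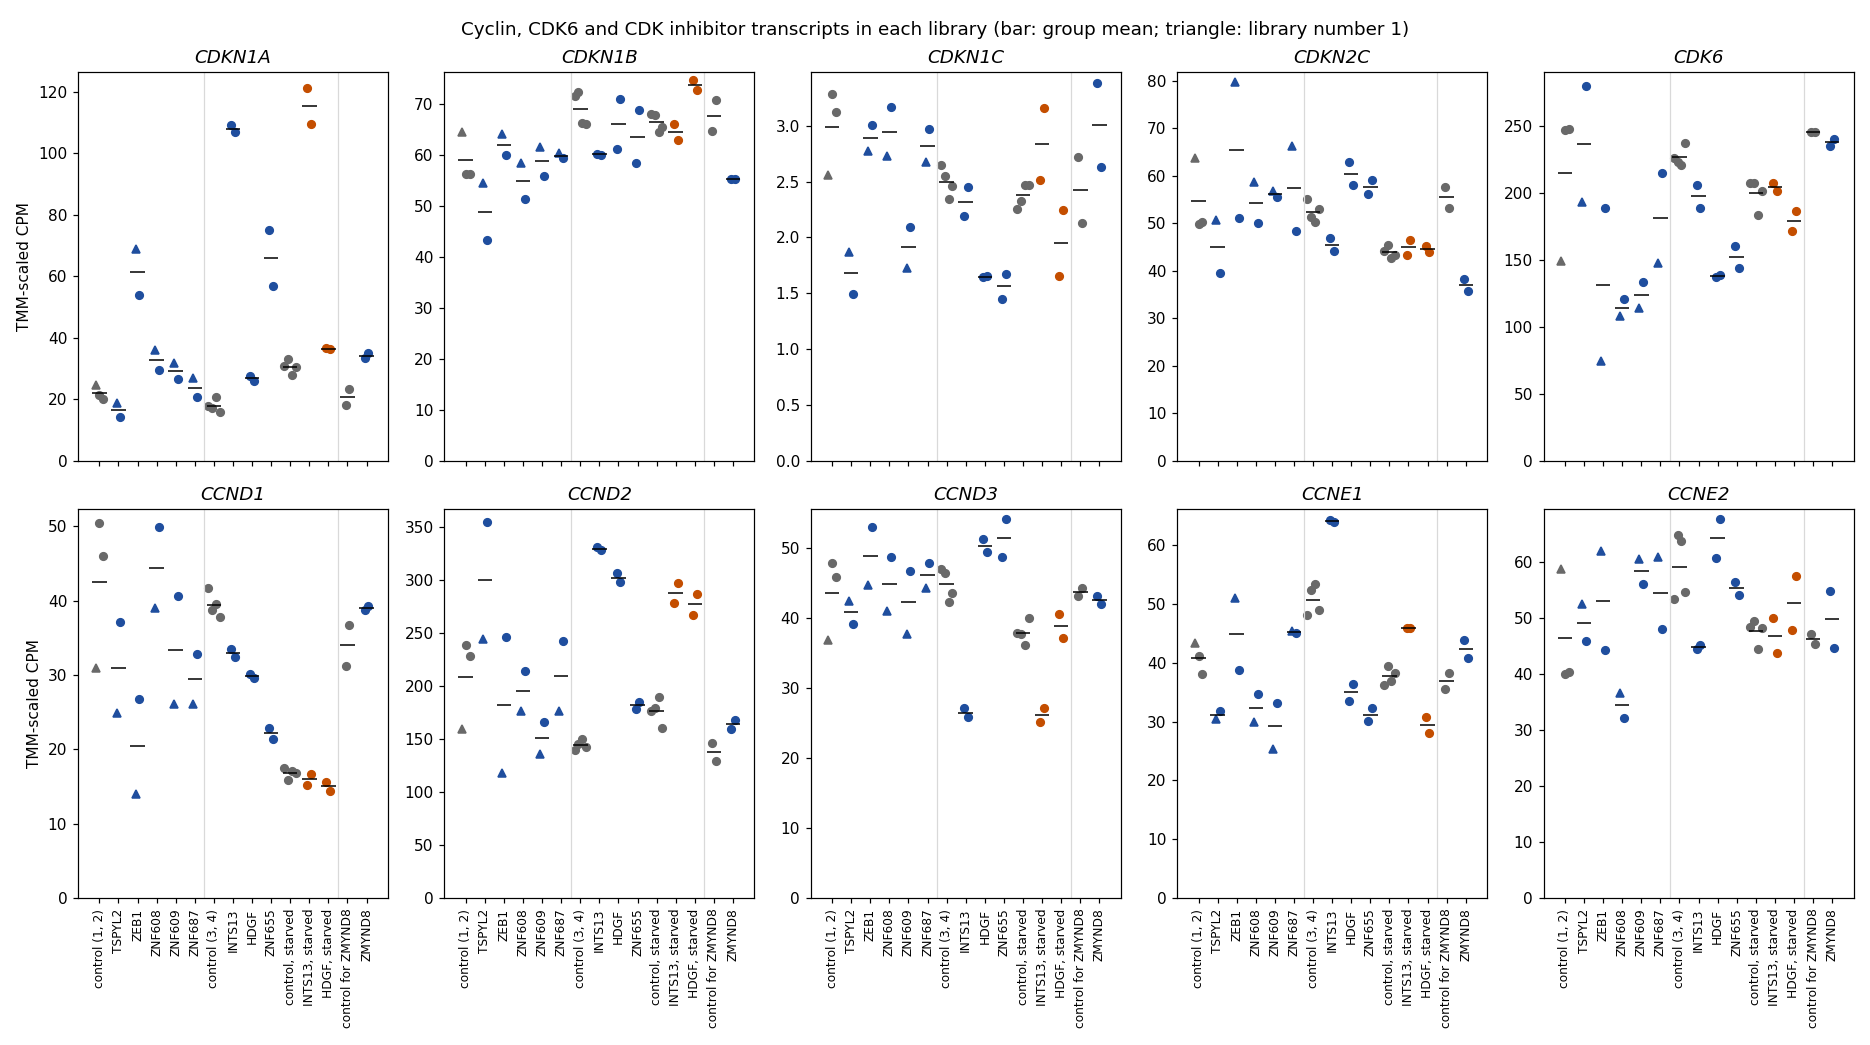
TMM-scaled CPM of each gene (panels) in every library, by group on the horizontal axis, with a bar at each group mean; grey marks controls, blue depletions with glucose, orange starved depletions, and triangles library number 1. INTS13-depleted libraries sit at 107 to 109 CPM for CDKN1A against 15.9 to 20.6 in the second-set controls. Within each first-set group, the library numbered 1 lies below those numbered 2 for CDK6.

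The genes whose levels, relative to the controls of the same set, followed CDKN1A most closely over the 35 libraries were PHLDA3 (Pearson r = 0.94), FAS (r = 0.93) and SESN1 (r = 0.91), out of 11514 candidate genes whose mean log2 CPM was 2 or more. These correlations describe the same libraries and share their controls. Levels were not adjusted for replicate number, so the first-set difference between numbers enters all correlations given here. The closest followers of the other 9 genes were KLF11 for CCND2 (r = 0.91), PSMD11 for CCND1 (r = 0.90), SOCS5 for CCNE2 (r = 0.88), RAB8A for CCND3 (r = 0.88), QSOX2 for CDK6 (r = 0.84), CCNA2, the S-phase cyclin, for CDKN2C (r = 0.84), TIMM50 for CCNE1 (r = 0.80), SNHG7 for CDKN1B (r = 0.79) and RALB for CDKN1C (r = 0.71).

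CDKN1B (ENSG00000111276.11, chr12:12715058-12722369, plus strand), the p27 inhibitor, varied least, by 1.73-fold between its lowest and highest library. It passed the test in 0 of the 9 depletions, with 3 at an unadjusted p under 0.05, 0 calls by DESeq2 and 2 in the fits of a set alone. INTS13-depleted libraries had 60.2 and 60.1 CPM against 66.1 to 72.5 CPM in controls, without overlap (log2 fold change -0.20 ± 0.09, adjusted p = 0.165; adjusted p = 0.0277 in the second set alone). This difference also passed with the replicate block over all libraries. After ZMYND8 depletion both libraries had 55.3 CPM against 64.7 and 70.8 CPM in their controls (log2 fold change -0.29 ± 0.11, adjusted p = 0.260; adjusted p = 0.00817 in that set alone). TSPYL2-depleted libraries, at 54.5 and 43.3 CPM, also lay below all controls (log2 fold change -0.27 ± 0.10, adjusted p = 0.139), and this difference passed with the replicate block over all libraries (adjusted p = 0.00896) and not with it in the first set alone (adjusted p = 0.115).

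CDKN1C (ENSG00000129757.13, chr11:2883213-2885773, minus strand), the p57 inhibitor, was the rarest of the transcripts at 1.45 to 3.39 CPM. Controls of the second set had 2.65, 2.55, 2.34 and 2.46 CPM. It fell after ZNF655 depletion, to 1.45 and 1.68 CPM (log2 fold change -0.68 ± 0.17, adjusted p = 0.0108), a call lost without the ZNF655 library numbered 3 (adjusted p = 0.157). HDGF-depleted libraries had 1.64 and 1.65 CPM (log2 fold change -0.60 ± 0.17, adjusted p = 0.0456), and that call was lost without any 1 of the 6 libraries compared. The HDGF call was also lost by DESeq2, against the ZMYND8 controls and with controls a and b of 1 number summed. Without the filter on low counts, both the HDGF and the ZNF655 call were lost. In the first set, TSPYL2-depleted libraries had 1.87 and 1.49 CPM against 2.56, 3.28 and 3.12 CPM in controls (log2 fold change -0.82 ± 0.17, adjusted p = 0.0117; adjusted p = 0.0674 in the first set alone with the replicate block), and the call was lost without the TSPYL2 library numbered 2. The TSPYL2 call was also lost without the filter, in the first set alone without a block and with controls a and b summed. ZNF609-depleted libraries, at 1.73 and 2.09 CPM, lay below those controls too (log2 fold change -0.63 ± 0.17, adjusted p = 0.0857), and passed with the replicate block over all libraries (adjusted p = 0.0399) but not in the first set alone (adjusted p = 0.290). None of the 4 groups overlapped its controls, while INTS13-depleted libraries, at 2.19 and 2.45 CPM, did (log2 fold change -0.11 ± 0.16, adjusted p = 0.735).

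CDKN2C (ENSG00000123080.12, chr1:50960745-50974634, plus strand), the INK4 inhibitor p18, passed in 0 of the 9 depletions, with 1 at an unadjusted p under 0.05, 1 call by DESeq2 and 3 in fits of a set alone. The difference with the smallest p followed ZMYND8 depletion, with 38.2 and 35.7 CPM against 57.7 and 53.2 CPM in its controls, 1.50-fold lower and without overlap (log2 fold change -0.59 ± 0.16, adjusted p = 0.0803). It passed by DESeq2 (adjusted p = 0.0267), in that set alone (adjusted p = 2.85e-05) and against the second-set controls (adjusted p = 0.0158). INTS13-depleted libraries had 46.9 and 44.1 CPM and HDGF-depleted libraries 62.8 and 57.9 CPM, on opposite sides of the controls at 50.2 to 55.0 CPM, with INTS13 lower and HDGF higher. Their adjusted p was 0.381 and 0.513 over all libraries and 0.0102 and 0.0188 in the second set alone. TSPYL2-depleted libraries, at 50.6 and 39.4 CPM, overlapped the first-set controls (63.7, 49.9 and 50.2 CPM) and passed with the replicate block over all libraries (adjusted p = 0.00727) but not in the first set alone (adjusted p = 0.139).

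To compare different genes, levels were divided by the exonic length of each gene, which does not tell isoforms of different length apart. On this scale CDKN1B was the most abundant Cip/Kip transcript in second-set controls at 26.9 ± 1.33 CPM per kb (SD, n = 4). CDKN1A followed at 5.96 ± 0.666 and CDKN1C at 1.01 ± 0.0519. Of the 3 summed, CDKN1A made up 16.3 to 20.4% in these controls, 23.4 to 27.2% after HDGF depletion, 40.7 to 51.7% after ZNF655 depletion and 59.4 to 59.9% after INTS13 depletion. The sum itself was 33.9 ± 1.37 CPM per kb (SD, n = 4) in controls and, with 2 libraries each, 35.4 ± 2.37 after HDGF, 47.4 ± 1.31 after ZNF655 and 60.4 ± 0.487 after INTS13 depletion. After INTS13 depletion CDKN1A therefore stood above CDKN1B per length, the reverse of their order in controls. Sums are descriptions and were not tested.

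CCND2 (ENSG00000118971.8, chr12:4273762-4305353, plus strand), the cyclin D2 partner of CDK4 and CDK6, rose after INTS13 and HDGF depletion. Its second-set controls measured 139, 145, 150.1 and 143 CPM. INTS13-depleted libraries had 331 and 328 CPM (log2 fold change 1.19 ± 0.18, adjusted p = 5.88e-05) and HDGF-depleted libraries 306 and 299 CPM (log2 fold change 1.07 ± 0.18, adjusted p = 0.000596), 2.28-fold and 2.10-fold higher. Both calls were kept with each library left out and in all other fits. INTS13 and HDGF depletion did not differ by the test (log2 fold change 0.12 ± 0.22, adjusted p = 0.827; 95% interval -0.33 to 0.57). ZNF655-depleted libraries, at 179 and 185 CPM, also lay above every control (log2 fold change 0.33 ± 0.19, adjusted p = 0.291; adjusted p = 0.000123 in the second set alone). They passed with the replicate block over all libraries as well. CCND2 was higher after INTS13 than after ZNF655 depletion (log2 fold change 0.86 ± 0.22, adjusted p = 0.0156) and higher after HDGF than after ZNF655 depletion (log2 fold change 0.73 ± 0.22, adjusted p = 0.0434), both calls lost without any 1 of the 4 libraries compared.

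First-set controls for CCND2 spread from 159.6 to 239 CPM, with number 1 lowest. TSPYL2-depleted libraries had 244 and 355 CPM, above all controls (log2 fold change 0.52 ± 0.20, adjusted p = 0.164). They passed with the replicate block over all libraries (adjusted p = 0.000375) but not in the first set alone with that block (adjusted p = 0.0582). The other 4 depletions of the set overlapped the controls. ZMYND8-depleted libraries had 159 and 168 CPM against 146 and 129 CPM (log2 fold change 0.25 ± 0.22, adjusted p = 0.840; adjusted p = 0.0409 in that set alone).

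CCND3 (ENSG00000112576.13, chr6:41934934-42050357, minus strand), cyclin D3, passed in 1 of the 9 depletions, falling after loss of INTS13. Its second-set controls had 47.0, 46.4, 42.3 and 43.6 CPM and the INTS13-depleted libraries 27.1 and 25.8 CPM, 1.70-fold lower (log2 fold change -0.76 ± 0.11, adjusted p = 1.61e-05), with each library left out as well. HDGF-depleted libraries, at 51.3 and 49.3 CPM, and ZNF655-depleted libraries, at 48.6 and 54.1 CPM, lay above all 4 controls without passing (adjusted p = 0.466 and 0.236), although ZNF655 passed in the second set alone (adjusted p = 0.0248). The direct comparisons passed: CCND3 was lower after INTS13 than after HDGF depletion (log2 fold change -0.93 ± 0.12, adjusted p = 8.97e-06) and than after ZNF655 depletion (log2 fold change -0.96 ± 0.12, adjusted p = 8.35e-06). CCND3 thus fell where CCND2 rose after INTS13 depletion.

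CCND1 (ENSG00000110092.4, chr11:69641156-69654474, plus strand), cyclin D1, fell after ZNF655 and ZEB1 depletion. Second-set controls had 41.7, 38.7, 39.6 and 37.8 CPM and ZNF655-depleted libraries 22.9 and 21.4 CPM, 1.78-fold lower (log2 fold change -0.83 ± 0.21, adjusted p = 0.00820). This call was lost without either ZNF655 library (adjusted p = 0.0695 and 0.0858) and against the ZMYND8 controls (adjusted p = 0.0973). INTS13-depleted libraries, at 33.5 and 32.4 CPM, and HDGF-depleted libraries, at 30.1 and 29.6 CPM, were below every control too (-0.26 and -0.40 on the log2 scale). Their adjusted p was 0.459 and 0.328 over all libraries without a block, and 0.00360 and 0.000139 in the second set alone. Both also passed with the replicate block over all libraries. In the first set, controls had 31.0, 50.5 and 46.0 CPM and ZEB1-depleted libraries 14.0 and 26.8 CPM (log2 fold change -1.05 ± 0.21, adjusted p = 0.00537). Within each replicate number the ZEB1 library was below the controls. The call was lost without ZEB1 number 1 (adjusted p = 0.301) and in the first set alone without a block (adjusted p = 0.412). CCND1 also passed with the replicate block over all libraries after TSPYL2 depletion, at 24.8 and 37.2 CPM (adjusted p = 0.261 without and 0.00939 with it), and after ZNF687 depletion, at 26.1 and 32.8 CPM (0.420 without and 0.0217 with it), although both groups overlapped the controls. Neither passed with the block in the first set alone (adjusted p = 0.135 and 0.378). CCND1 shares 1399 bases with LTO1 on the other strand, a gene at a mean of 24.8 CPM that fell by 0.34 on the log2 scale after INTS13 depletion (edgeR adjusted p = 0.0185). Since the strand setting of the counting is not given in the sources used here, it is not known whether reads of the 2 genes were kept apart there.

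**Figure D3:**
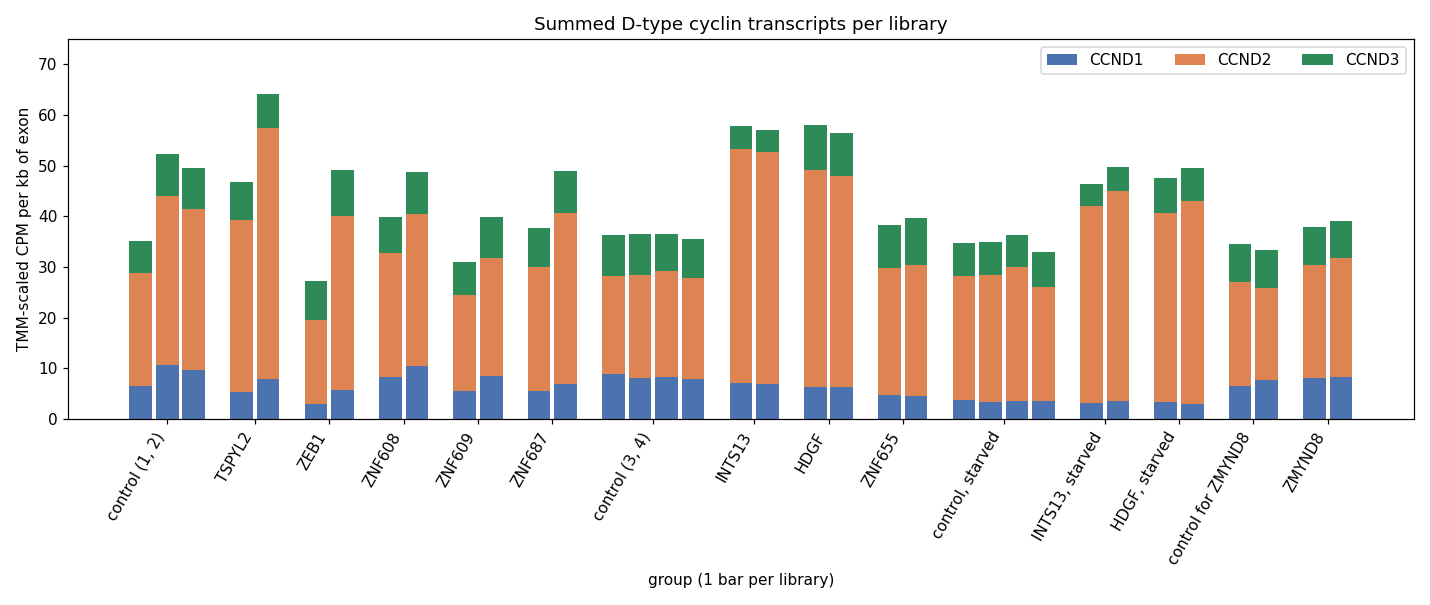
Summed D-type cyclin levels, in TMM-scaled CPM per kb of exon (vertical axis), with 1 stacked bar per library in each group, split into CCND1, CCND2 and CCND3. The CCND2 block fills 53.5 to 57.2% of the bars of second-set controls and 79.7 to 80.2% of those of INTS13-depleted libraries, which are also taller.

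Per kilobase of exon the 3 D-type cyclins together measured 35.4 to 36.6 CPM per kb in second-set controls. The sum was 57.1 to 57.9 after INTS13, 56.4 to 58.0 after HDGF and 38.2 to 39.7 after ZNF655 depletion, above every control in all 3. CCND2 made up 53.5 to 57.2% of it in controls, 65.0 to 65.3% after ZNF655, 73.7 to 73.8% after HDGF and 79.7 to 80.2% after INTS13 depletion. CCND3 made up 20.1 to 22.4% in controls and 7.86 to 8.12% after INTS13 depletion. The summed D-type cyclin transcripts of INTS13-depleted cells, on this scale, were thus higher, with a larger share of CCND2.

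CDK6 (ENSG00000105810.10, chr7:92604921-92836573, minus strand), the kinase partner of the D-type cyclins, was called in 1 of the 9 depletions by edgeR, in 5 by DESeq2 and in 3 in fits of a set alone. The call was ZNF608 depletion, with 108 and 121 CPM against 149, 247 and 248 CPM in the first-set controls (log2 fold change -0.91 ± 0.24, -1.03 to -0.76 over the fits with other settings, adjusted p = 0.0343). It was kept with the replicate block over all libraries (adjusted p = 0.000408), and lost in the first set alone with the block (adjusted p = 0.0581) and without either ZNF608 library or either of the controls 2a and 2b. ZNF609-depleted libraries had 114 and 133 CPM (log2 fold change -0.80 ± 0.24, adjusted p = 0.153) and ZEB1-depleted libraries 74.7 and 189 CPM (log2 fold change -0.70 ± 0.24, adjusted p = 0.0905), and both differences passed with the block over all libraries (adjusted p = 0.00580 and 0.00140) and neither with it in the first set alone (adjusted p = 0.279 and 0.0861). Within each replicate number the ZNF608, ZNF609 and ZEB1 libraries lay below the controls of that number, though ZEB1 number 2 overlapped control 1.

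In the second set CDK6 controls were tight, at 226, 223, 221 and 237 CPM. HDGF-depleted libraries had 137 and 139 CPM, 1.64-fold lower (log2 fold change -0.72 ± 0.23, adjusted p = 0.0739), and ZNF655-depleted libraries 160.2 and 144 CPM, 1.49-fold lower (log2 fold change -0.58 ± 0.23, adjusted p = 0.102). Neither passed in the edgeR fit of all libraries without a block. Both passed in edgeR with the replicate block over all libraries and in the second set alone (adjusted p = 3.51e-08 and 4.25e-07). Both also passed by DESeq2 over all libraries (adjusted p = 0.0211 and 0.0427). INTS13-depleted libraries had 206 and 189 CPM, just below the controls (log2 fold change -0.20 ± 0.22, adjusted p = 0.634; adjusted p = 0.0148 in the second set alone). The difference between INTS13 and HDGF depletion had adjusted p = 0.253 in edgeR over all libraries without a block and 1.36e-05 in the second set alone. It also passed with the replicate block over all libraries. ZMYND8-depleted libraries, at 235 and 241 CPM, lay just below their controls at 245 and 246 CPM without a call (log2 fold change -0.04, 95% interval -0.57 to 0.48).

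CCNE1 (ENSG00000105173.14, chr19:29811991-29824312, plus strand), cyclin E1, moved in both directions. Second-set controls had 48.2, 52.4, 53.4 and 49.0 CPM. ZNF655-depleted libraries had 30.1 and 32.3 CPM, 1.63-fold lower (log2 fold change -0.70 ± 0.10, adjusted p = 5.31e-05), and HDGF-depleted libraries 33.5 and 36.5 CPM, 1.45-fold lower (log2 fold change -0.54 ± 0.10, adjusted p = 0.00180). INTS13-depleted libraries had 64.2 and 64.0 CPM, above every control (log2 fold change 0.34 ± 0.10, adjusted p = 0.0227). This higher call was lost without either INTS13 library or either of the controls 3a and 4b (adjusted p up to 0.206), without the filter on low counts (adjusted p = 0.111) and with controls a and b of 1 number summed (adjusted p = 0.136), and the HDGF call without the HDGF library numbered 3 (adjusted p = 0.0836). The direct comparisons were firmer: CCNE1 was higher after INTS13 than after ZNF655 depletion, by 2.05-fold (log2 fold change 1.04 ± 0.12, adjusted p = 2.43e-06), and than after HDGF depletion, by 1.83-fold (log2 fold change 0.87 ± 0.12, adjusted p = 1.55e-05).

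The level of CCNE1 in controls differed between sets, at 35.6 and 38.2 CPM in the ZMYND8 controls and 43.3, 41.1 and 38.1 CPM in the first-set controls. Against the ZMYND8 controls the lower CCNE1 levels after ZNF655 and HDGF depletion no longer passed (log2 fold change -0.24, adjusted p = 0.207, and -0.08, adjusted p = 0.721), while the higher level after INTS13 depletion grew to 0.80 (adjusted p = 5.26e-05). In the first set CCNE1 fell after TSPYL2 depletion, to 30.4 and 31.7 CPM (log2 fold change -0.39 ± 0.11, adjusted p = 0.0485), and after ZNF609 depletion, to 25.3 and 33.2 CPM (log2 fold change -0.48 ± 0.11, adjusted p = 0.0340), both below every control. Neither call held in the first set alone with the replicate block (adjusted p = 0.144 and 0.297). The TSPYL2 call was lost without any 1 of the 5 libraries, and the ZNF609 call without any 1 of them except ZNF609 number 2, and without the number 1 libraries together (log2 fold change -0.24). ZNF608-depleted libraries, at 30.0 and 34.7 CPM, did not pass in edgeR (adjusted p = 0.0939) but did by DESeq2 (0.0395) and in edgeR with the replicate block over all libraries (0.0367), and not with that block in the first set alone (0.252). ZMYND8-depleted libraries, at 43.9 and 40.8 CPM, lay above their controls without a call (log2 fold change 0.20 ± 0.12, adjusted p = 0.664).

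CCNE2 (ENSG00000175305.17, on chromosome 8), cyclin E2, passed in 0 of the 9 depletions, with 3 at an unadjusted p under 0.05, 0 calls by DESeq2 and 1 in fits of a set alone. That 1 was INTS13 depletion, with 44.5 and 45.3 CPM against 53.4, 65.0, 63.9 and 54.7 CPM in controls, without overlap (log2 fold change -0.40 ± 0.15, adjusted p = 0.0730; adjusted p = 0.00113 in the second set alone). The difference after INTS13 depletion also passed with the replicate block over all libraries. ZNF608-depleted libraries, at 36.6 and 32.2 CPM, lay below all first-set controls (58.9, 40.1 and 40.5 CPM) and passed with the replicate block over all libraries (adjusted p = 0.145 without and 0.00438 with it) but not in the first set alone with it (adjusted p = 0.0507). CCNE2 shares 1977 bases with INTS8, an Integrator subunit gene on the other strand at a mean of 127 CPM, and INTS8 fell by 0.35 on the log2 scale after INTS13 depletion (edgeR adjusted p = 0.00200), by 0.30 after ZNF655 depletion (adjusted p = 0.00753) and by 0.46 after TSPYL2 depletion (adjusted p = 0.00385). It also shares 912 bases with NDUFAF6, which rose by 0.57 after INTS13 depletion (edgeR adjusted p = 0.0118), so reads could be split among these genes if strand was not used. Per kilobase, CCNE1 made up 59.0 to 61.7% of the E-type cyclins in second-set controls, 49.0 to 49.6% after HDGF, 48.8 to 51.6% after ZNF655 and 71.6 to 72.1% after INTS13 depletion.

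Glucose starvation of control cells changed 4 of the 10 genes (1 higher, 3 lower), where 16.8% of all genes tested passed, and 8 of the 10 in the second set alone, where 34.7% of all genes did. CCND1 fell most, from a range of 37.8 to 41.7 CPM with glucose to 17.4, 15.8, 17.1 and 16.8 CPM, 2.35-fold (log2 fold change -1.23 ± 0.17, adjusted p = 1.09e-05). CDKN1A rose from a range of 15.9 to 20.6 CPM to 30.9, 32.9, 27.9 and 30.4 CPM (log2 fold change 0.78 ± 0.12, adjusted p = 4.56e-05), and CCNE1 fell from a range of 48.2 to 53.4 CPM to 36.3, 39.5, 36.8 and 38.3 CPM (log2 fold change -0.43 ± 0.08, adjusted p = 0.000631). In these 3 genes no starved library overlapped a control with glucose, and the calls were kept with each library left out in turn. CCND3 fell to 37.8, 37.6, 36.2 and 39.9 CPM (log2 fold change -0.24 ± 0.08, adjusted p = 0.0438), a call lost without 7 of the 8 libraries in turn. CCND2 was at 176, 179, 189.8 and 161 CPM, above every control with glucose (log2 fold change 0.29 ± 0.16, adjusted p = 0.225; adjusted p = 5.80e-05 in the second set alone). It also passed with the replicate block over all libraries. Starved controls thus held about the same D-type cyclin sum per kilobase (32.9 to 36.3 CPM per kb) with a CCND2 share of 68.2 to 72.9% and a CCND1 share of 9.52 to 10.7%, against 22.3 to 24.1% with glucose.

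In INTS13-depleted cells starvation changed 2 of the 10 genes against 1.32% of all genes. CCND1 fell from 33.5 and 32.4 to 15.2 and 16.7 CPM (log2 fold change -1.04 ± 0.24, adjusted p = 0.0243) and CCNE1 from 64.2 and 64.0 to 45.9 and 46.0 CPM (log2 fold change -0.48 ± 0.12, adjusted p = 0.0353). CDKN1A, already high, was at 121 and 109.5 CPM in starved cells (log2 fold change 0.09 ± 0.16, adjusted p = 0.875). In HDGF-depleted cells starvation changed 1 of the 10 against 3.54% of all genes: CCND1 fell from 30.1 and 29.6 to 15.6 and 14.4 CPM (log2 fold change -0.99 ± 0.24, adjusted p = 0.0188). With 2 libraries a side, these 3 calls were lost without any 1 of the 4 libraries. CDK6 went from 137 and 139 to 171 and 187 CPM after starvation of HDGF-depleted cells (log2 fold change 0.37 ± 0.26, adjusted p = 0.524; adjusted p = 0.000913 in the second set alone), towards the 184 to 208 CPM of starved controls.

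**Figure D4:**
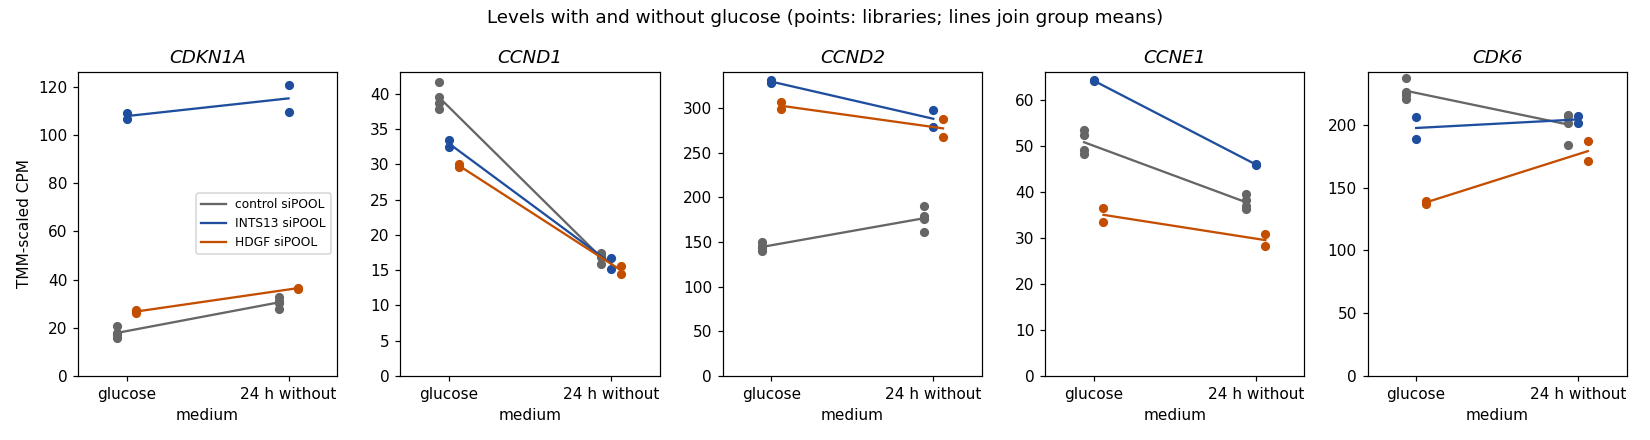
TMM-scaled CPM of 5 genes (panels) with glucose and after 24 h without it (horizontal axis) in cells given control, INTS13 or HDGF siPOOLs; points are libraries and lines join group means. CCND1 is at 15.8 to 17.4 CPM in starved controls, and CDKN1A sits at 109.5 to 121 CPM in starved INTS13-depleted cells against 27.9 to 32.9 CPM in starved controls.

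Within starved cells, INTS13 depletion changed 3 of the 10 genes against 3.86% of all genes. CDKN1A rose from a range of 27.9 to 32.9 CPM in starved controls to 121 and 109.5 CPM (log2 fold change 1.92 ± 0.13, adjusted p = 5.02e-10), CCND2 rose to 278 and 298 CPM (log2 fold change 0.71 ± 0.19, adjusted p = 0.0282) and CCND3 fell to 25.1 and 27.0 CPM (log2 fold change -0.54 ± 0.11, adjusted p = 0.00290). The CCND2 call was lost without either starved INTS13 library or any of the starved controls 3a, 3b and 4b, and the CCND3 call without the starved INTS13 library numbered 3. HDGF depletion in starved cells changed 0 of the 10 in edgeR (2 at an unadjusted p under 0.05 and 1 by DESeq2), against 0.659% of all genes. CCND2 measured 267 and 287 CPM there (log2 fold change 0.65 ± 0.19, adjusted p = 0.106; adjusted p = 1.52e-07 in the second set alone). It also passed with the replicate block over all libraries.

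The interaction term, which tests whether the response to starvation differed between depleted and control cells, passed for 0 of the 10 genes with INTS13 (1 at an unadjusted p under 0.05, 0 by DESeq2), against 0.0156% of all genes, and for 0 of the 10 with HDGF (0 at an unadjusted p under 0.05, 0 by DESeq2), against 0% of all genes. For CDKN1A and INTS13 it was -0.68 ± 0.20 on the log2 scale (adjusted p = 0.440), and it passed in the second set alone (adjusted p = 0.0140) and with the replicate block (adjusted p = 0.0290). In the second set alone CCND2 passed as well with INTS13 (log2 -0.47, adjusted p = 0.00511) and with HDGF (-0.41, adjusted p = 0.0298), as did CDK6 with HDGF (0.56, adjusted p = 0.00934). For CCND1 the interactions were 0.19 (95% interval -0.40 to 0.78) with INTS13 and 0.25 (95% interval -0.35 to 0.84) with HDGF.

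A list of 42 other genes of the G1 to S step, all 42 of them tested, gave the pathway around these members. After INTS13 depletion 3 rose and 3 fell, with a median log2 fold change of -0.07 against 0.01 over all genes, where 12.8% of all genes passed. The share of the 42 that passed was thus close to that of all genes. MDM2, a p53 target that encodes the ubiquitin ligase of p53, rose (log2 fold change 0.59 ± 0.09, adjusted p = 7.33e-05). FBXW7, the ubiquitin ligase adaptor that marks cyclin E for destruction, and E2F1 also rose (0.34 and 0.24 on the log2 scale). CDC25A, the phosphatase that activates CDK2, fell (log2 fold change -0.40 ± 0.09, adjusted p = 0.00336), as did DTL, the adaptor that directs p21 to degradation, and the pocket protein gene RBL1 (-0.37 and -0.29).

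After HDGF depletion, where 4.49% of all genes passed, 0 of the 42 rose and 5 fell, among them MDM2 (log2 fold change -0.58 ± 0.10, adjusted p = 0.000436), E2F1 (-0.54) and FBXO31, an F-box protein linked to cyclin D1 turnover (-0.47). MDM2 therefore moved in opposite directions after INTS13 and HDGF depletion, and the difference passed by itself (log2 fold change 1.16 ± 0.11, adjusted p = 9.03e-08), as it did for E2F1 (log2 fold change 0.79 ± 0.09, adjusted p = 2.31e-06). ZNF655 depletion, where 11.5% of all genes passed, gave 1 higher, MDM2 (log2 fold change 0.28 ± 0.09, adjusted p = 0.0480), and 7 lower, with E2F5, CCNG2 and the pocket protein gene RBL2 at -0.59, -0.45 and -0.42 on the log2 scale. In the other depletions, where 0.254% (ZNF687) to 3.77% (ZEB1) of all genes passed, at most 1 of the 42 passed in either direction. RBL2 fell after ZEB1 (log2 fold change -0.86 ± 0.08, adjusted p = 2.77e-07) and ZNF687 depletion (-0.39). CCNG2 fell after TSPYL2 depletion (-0.35) and E2F1 rose after ZNF608 depletion (0.34).

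Starvation of control cells moved 4 of the 42 up and 5 down, a share not far above the 16.8% of all genes that passed. CCNG1, MYBL2 and RBL1 rose (0.63, 0.36 and 0.28 on the log2 scale), and CDC25A fell most (log2 fold change -0.56 ± 0.07, adjusted p = 8.07e-06), with E2F5 and FBXO31 at -0.42 and -0.32. RBL1 rose with starvation in INTS13-depleted (0.43) and HDGF-depleted cells (0.36) as well. In starved cells INTS13 depletion again raised MDM2 (log2 fold change 0.69 ± 0.09, adjusted p = 3.07e-05) and FBXW7 (0.41).

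Per kilobase of exon, the order of the 10 transcripts in second-set controls ran from CDKN1B at 25.8 to 28.2 CPM per kb, through CCNE1 (19.6 to 21.7), CCND2 (19.4 to 20.9), CDK6 (18.0 to 19.4), CDKN2C (16.6 to 18.2), CCNE2 (12.1 to 14.8), CCND1 (7.95 to 8.77), CCND3 (7.34 to 8.16) and CDKN1A (5.32 to 6.88) to CDKN1C (0.946 to 1.07). Neighbours overlapped in range between CCNE1 and CCND2, between CDK6 and CDKN2C and between CCND1 and CCND3. Ranges of the other neighbouring pairs were separate over these 4 libraries.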

How the data were processed

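Ribosomal-RNA-depleted, stranded total RNA libraries of HEK293T cells were sequenced with 100 base single-end reads, per the series' design text and the labels' protocols. The authors deposited raw read counts per gene with exon lengths, which the table's own name says were taken before duplicates were removed. Reads had been processed with FastQC, cutadapt and STAR on hg38, per the submitters' processing notes. The counter, annotation and strand setting are not given in the sources used here. All 37 mitochondrial genes are listed at 0 in all libraries.

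Counts were fitted in R 4.3.3 with edgeR 4.0.16 (filterByExpr by group, TMM, quasi-likelihood test, 15 group means, no block), leaving 20 residual degrees of freedom. Called means a Benjamini-Hochberg adjusted p below 0.05 over 19275 genes, two-sided. The fit, tested on simulated data, was repeated with DESeq2 1.42.0 and the other settings of the closing section. Totals of 16.8 M to 50.8 M reads limit precision mainly for CDKN1C. Replicates of a group differed by more than counting noise. Replicate numbers paired the libraries of the first set (median correlation of deviations 0.742), not those of the second (6 of 21 pairs of groups above 0.1).

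The 10 genes, the pathway list, the comparisons and the settings were chosen with earlier results of these data known. Named genes were all 10 members, up to 3 called pathway genes per direction and comparison with the largest change, the siPOOL targets, and the 3 genes most correlated with each member, of which the closest is printed for 9 members.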

Additional observations from a re-analysis of the deposited data

How the results depend on the processing

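Over 19 comparisons, 39 of 190 pairs of a member and a comparison were called. Of these, 17 were kept with each library left out in turn, 20 in all other settings and 16 in both, and 0 changed sign. With 2 libraries in most groups, leaving 1 out assumes that the lone library varies like the other groups. Scaling by DESeq2's size factors changed no call. The cause of the changes below was not tested.

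Counts of called members moved as follows, with the count of the report first. The share of all genes that passed moved too, so the counts alone say nothing particular to these members. For INTS13 that share went from 12.8% to 30.1% in the second set alone. For TSPYL2 it went from 2.22% to 19.2% with the block over all libraries. In a set alone, both without and with the replicate block, INTS13 went from 4 to 9, HDGF from 4 to 7, ZNF655 from 4 to 7, ZMYND8 from 1 to 4, TSPYL2 from 2 to 0, ZNF609 from 1 to 0, starvation of controls from 4 to 8, HDGF in starved cells from 0 to 2, both interactions from 0 to 2, INTS13 minus ZNF655 from 4 to 9 and INTS13 minus HDGF from 3 to 6. There ZNF608 went from 2 to 0 (1 with the block), starvation of HDGF-depleted cells from 1 to 7 (6 with the block) and ZEB1 from 2 to 1 without the block. With the replicate block over all libraries the counts were 7 for INTS13, 2 for ZMYND8, 7 for TSPYL2, 4 for ZNF608, 3 for ZNF609, 1 for ZNF687, 7 for starvation of controls, 4 for starvation of HDGF-depleted cells, 1 for HDGF in starved cells, 1 for the INTS13 interaction and 6 for INTS13 minus HDGF. That block also gave 6 for HDGF, ZNF655 and INTS13 minus ZNF655, and 3 for ZEB1 and HDGF minus ZNF655. In a set alone, with or without the block, INTS13 in starved cells had 4 and HDGF minus ZNF655 had 3. With the replicate numbers of the titles as block in the first set alone, TSPYL2 and ZNF609 had 0 and ZNF608 had 1.

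Without the filter on low counts, ZMYND8 had 2, TSPYL2 1, ZNF687 1, starvation of INTS13-depleted cells 1, HDGF in starved cells 1 and INTS13 minus HDGF 5. ZEB1 had 3 and INTS13 minus ZNF655 had 5 there. DESeq2 gave 2 for ZMYND8, 3 for ZNF609, 2 for starvation of HDGF-depleted cells and 1 for HDGF in starved cells. It also gave 5 for ZNF655, 3 for ZEB1 and ZNF608, and 4 for INTS13 minus HDGF. Controls of another set gave 2 for HDGF, 2 for ZNF655 and 3 for ZMYND8. Summed controls a and b of 1 number gave 3 for INTS13, 3 for starvation of controls and 2 for INTS13 in starved cells. In fits added after the data were seen, summing controls a and b of 1 number gave 0 for ZMYND8, TSPYL2, ZNF608, ZNF609 and starvation of INTS13-depleted cells. It gave 1 for ZEB1 and HDGF minus ZNF655, and 2 for HDGF. Leaving out all first-set libraries numbered 1, also added then, left 1 library per first-set depletion, and its counts are not given.

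With each library left out in turn the counts ranged from 3 to 4 for INTS13, 1 to 3 for HDGF, 2 to 4 for ZNF655, 0 to 2 for TSPYL2, 1 to 6 for ZEB1 (6 without ZEB1 number 2), 0 to 2 for ZNF608, 0 to 2 for ZNF609, 3 to 4 for starvation of controls, 1 to 3 for INTS13 in starved cells and 2 to 3 for INTS13 minus ZNF655. Without any 1 library they dropped from 1 to 0 for ZMYND8, from 2 to 0 for starvation of INTS13-depleted cells, from 1 to 0 for starvation of HDGF-depleted cells and from 2 to 1 for HDGF minus ZNF655, and were 3 throughout for INTS13 minus HDGF.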
